A study of Saccharomyces cerevisiae with 39 samples.

Results

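The rrp45-I15P allele of budding yeast was compared with its wild-type control, RRP45, by RNA sequencing. The comparison used the 3 libraries titled for the mutant and the 3 titled for the control, 6 of the 39 libraries of the series, and every feature of the count files. Both groups are haploid MATα cells with ura3Δ0, leu2Δ0 and his3Δ1, and both lack the chromosomal RRP45 gene (rrp45Δ::NEO), so that the only copy is on a low-copy plasmid (pRS315, with LEU2 and CEN6) carrying either RRP45 or rrp45-I15P. Another label calls all strains BY4741. Cells grew for 5 h at 37 °C in 10 mL of minimal medium without leucine. Libraries were made from total RNA after rRNA depletion. The labels speak of triplicate cultures but do not say whether a genotype came from several transformants, so p-values measure the spread between these cultures only. For reference, 3 other mutants were set beside it, each with its own control of 3 libraries: rrp46-Q86I and rrp46-L191H, which share the RRP46 control, and rrp6Δ with its RRP6 control. The rrp46 groups are MATα cells with ura3Δ0, leu2Δ0, his3Δ1, lys2Δ0 and rrp46Δ::kanMX4, and the RRP6 groups MATa cells with ura3Δ0, leu2Δ0, his3Δ1, met15Δ0 and rrp6Δ::kanMX4. All carried the same kind of plasmid under the same growth conditions, with the gene or allele named, or with no insert in rrp6Δ. Shares of counts are also given for rrp46-L127T, for RRP4 and rrp4-G226D (MATα, rrp4Δ::NEO, with the auxotrophies of the rrp46 groups) and for RRP40, rrp40-S87A and rrp40-W195R (MATa, rrp40Δ::NEO, with ura3Δ0, leu2Δ0 and his3Δ1).

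Rrp45 is a subunit of the RNA exosome, a complex that processes and degrades RNA from the 3′ end in the nucleus and the cytoplasm. It has the fold of a bacterial RNase PH protein but no catalytic activity of its own, and sits with Rrp46, Rrp43, Rrp42, Mtr3 and Ski6 in the hexameric ring through which RNA is threaded to the nuclease Dis3. The cap proteins Rrp4, Rrp40 and Csl4 lie on the ring, and the nuclear nuclease Rrp6 binds above them. The human counterpart of Rrp45 is EXOSC9, in which missense variants are linked to inherited disease of the cerebellum and motor neurons, and the series title says that its alleles model such mutations.

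The altered codon lies near the start of the gene. RRP45 (YDR280W) occupies chromosome IV:1020747-1021664 on the plus strand of the R64 genome (RefSeq), with 918 bases that encode 305 residues. Its first 25 codons are shown because they hold the changed position, with codon 15, isoleucine in the reference, in capitals at 1020789 to 1020791. The bases of the mutant codon are not given in the sources used here.
RRP45 (IV:1020747-1020821): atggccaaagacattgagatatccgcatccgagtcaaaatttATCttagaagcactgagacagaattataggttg

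The 6 libraries held 34752067 to 53642418 counts each. As sums, mating type markers followed the genotype. The 4 markers of MATα cells summed to 1077 to 1158 CPM in the control and 1049 to 1111 in the mutant. CPM are counts scaled to a library total of 1000000 with TMM factors, as all levels below. The 6 markers of MATa cells summed to 65.9 to 66.7 in the control and 65.1 to 68.1 in the mutant. Single markers were less even. MF(ALPHA)1, at 700 to 835 CPM, made up most of the MATα sum, and MF(ALPHA)2 was at 12.7 to 16.2 CPM. Of the MATa markers, STE2 was at 8.12 to 8.85 CPM and STE6 at 46.7 to 49.6 CPM. LEU2 and LYS2 were expressed. URA3 and HIS3 are among 738 features listed at 0 in all 6 libraries, so a 0 alone does not show a deletion. In the first principal component, which held 49.8% of the variance, every RRP45 library lay below every rrp45-I15P library. Control replicate 1 was the lowest, at -5.08. At the other end, replicate 2 of rrp45-I15P stood apart at 7.17, while the other 5 libraries lay between -5.08 and 0.54. For several mitochondrial genes the value without this replicate is given too.

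RRP45 RNA stood at overlapping levels in the 2 groups. Its level was 371, 356 and 306 CPM in the control and 321, 308 and 400 CPM in rrp45-I15P. The highest value was in mutant replicate 3 and the lowest in control replicate 3. The log2 fold change was 0.00 (-0.0027) with a standard error (SE) of 0.116, and the 95% interval ran from -0.28 to 0.28. The spread between replicates of this plasmid gene was thus wider than that of most features, whose median SE was 0.0593.

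Across the transcriptome the mutant was close to its control. Of 7520 features tested, 2 were called changed (0.0266%), both higher, at an adjusted p under 0.05 by edgeR's quasi-likelihood test with Benjamini-Hochberg adjustment. These were SUT106, a stable unannotated transcript of unknown function, and 15S_rRNA, the RNA of the small subunit of the mitochondrial ribosome. No feature was called lower. By the unadjusted p alone, 735 features (9.77%) were under 0.05, 430 higher and 305 lower (5.72% and 4.06%), and the 2 groups did not overlap in 1102 features (14.7%). DESeq2 called 50 of 8160 features (0.613%), 47 of them higher (0.576%) and 3 lower (0.0368%), and the authors' deposited table of the same comparison holds 52 of 7669 (0.678%). The 50 DESeq2 calls were all among those 52. The median absolute log2 difference was 0.0562 to 0.06 between control libraries, 0.0452 to 0.0746 between mutant libraries and 0.0436 to 0.098 between a control and a mutant library, over 5138 features with a mean of at least 10 CPM. Mutant replicate 1 and control replicate 3 were the closest pair of all.

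**Figure D1:**
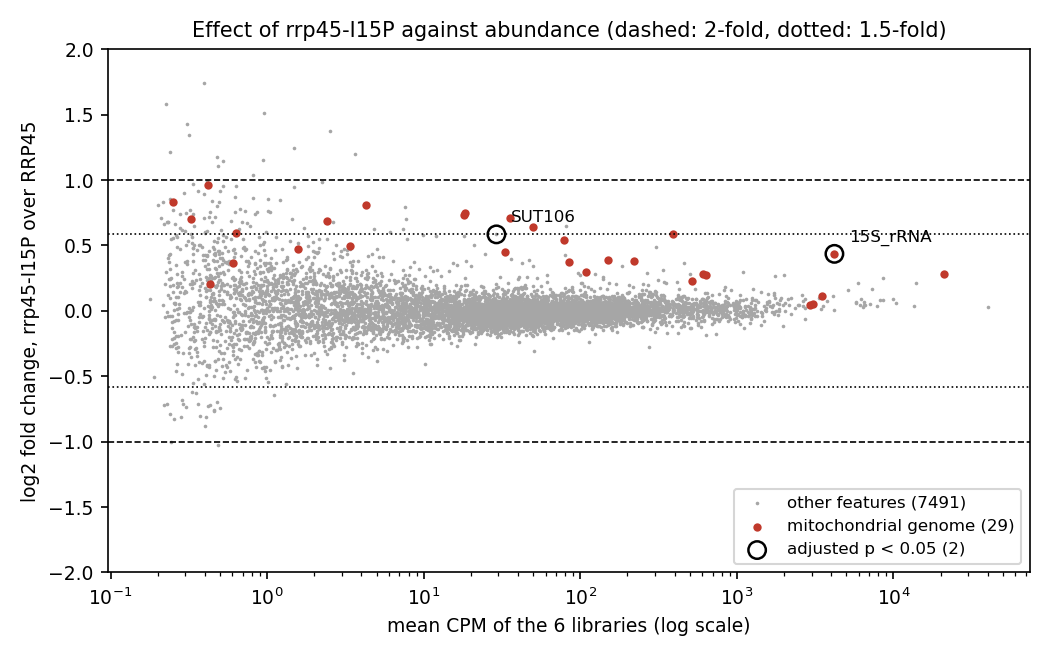
Log2 fold change of rrp45-I15P over RRP45 (vertical) against mean CPM of the 6 libraries (horizontal, log scale) for 7520 features. Grey points lie close to 0 above 10 CPM, the 29 mitochondrial features (red) all lie above 0, and the 2 called features are ringed.

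SUT106 stood at 22.7, 23.6 and 23.6 CPM in the control and at 34.3, 38.6 and 32.1 CPM in rrp45-I15P. Every mutant library was above every control library. The log2 fold change was 0.58 (SE 0.0663, adjusted p 0.00537), which is 1.5-fold with a 95% interval of 1.36 to 1.66. The call held with each of the 6 libraries left out, with adjusted p-values of 0.00231 to 0.0492 and log2 fold changes of 0.51 to 0.64.

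15S_rRNA stood at 3454, 3700 and 3558 CPM in the control and at 4603, 5124 and 4761 CPM in the mutant, again without overlap. It rose by 0.44 on the log2 scale (SE 0.0538, adjusted p 0.007), or 1.35-fold with an interval of 1.25 to 1.47. The call was lost without control replicate 1 (adjusted p 0.106), without control replicate 3 (0.0934) and without mutant replicate 3 (0.0581), while the log2 fold change stayed between 0.39 and 0.47. Both calls were lost in a joint fit of all 39 libraries, where the adjusted p was 0.494 for SUT106 and 0.721 for 15S_rRNA.

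A missed threshold does not show that a feature was unchanged, so the size of a difference that the data allow was bounded by a pair of one-sided tests against a given fold, adjusted over all features. A difference beyond 2-fold in either direction was excluded for 7331 of 7520 features (97.5%) and beyond 1.5-fold for 6754 (89.8%). The median half-width of the 95% interval was 0.128 on the log2 scale, the median absolute log2 fold change 0.058 and its 95th percentile 0.336. The bound depended on abundance. Under 1 CPM, 76.8% of 737 features were bounded within 2-fold and 22.0% within 1.5-fold. From 1 to 10 CPM these shares were 99.1% and 89.9% of 1645 features, and from 10 to 100 CPM 99.9% and 99.4% of 3399. All 1596 features between 100 and 1000 CPM and all 143 above that were bounded within 2-fold.

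**Figure D2:**
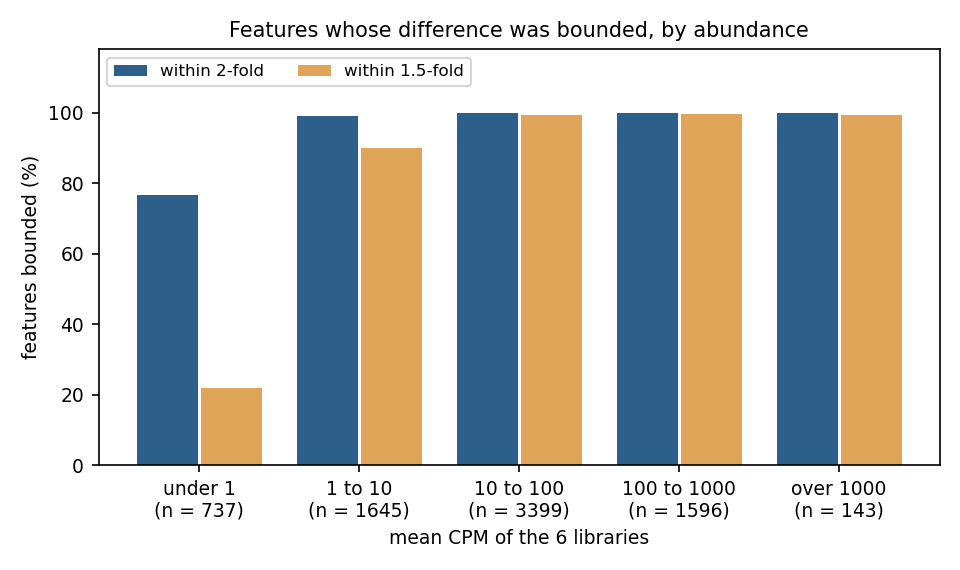
Share of features (%) for which a difference beyond 2-fold (blue) or 1.5-fold (orange) was excluded, by mean CPM, with the number of features under each pair of bars. The share within 1.5-fold was 22.0% under 1 CPM and 99.3% to 99.7% from 10 CPM on.

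An estimate beyond 2-fold was found for 16 features, 14 higher and 2 lower. Of these, 13 had a mean under 1 CPM, the other 3 lay between 1 and 10 CPM, and none was called by edgeR. DESeq2 called 5 of the 16, all higher and all called in the authors' deposited table as well: YCR013C (DESeq2 adjusted p 4.51e-06), YNL303W (4.1e-06), YLR076C (0.00111), YAL037C-B (0.00405) and APQ13 (0.0445). YCR013C, known here by identifier only, was at 1.17, 1.49 and 1.49 CPM in the control and 2.91, 5.23 and 2.8 CPM in the mutant, a log2 fold change of 1.38 (edgeR adjusted p 0.112). The highest was APQ13, a dubious open reading frame, at 0.157, 0.151 and 0.237 CPM in the control and 0.598, 0.668 and 0.563 CPM in the mutant (log2 fold change 1.75, SE 0.333, edgeR adjusted p 0.0601). HOP1, which encodes a meiotic chromosome protein, was at 0.0674, 0.108 and 0.166 CPM against 0.37, 0.306 and 0.338 CPM (1.58, adjusted p 0.249). The groups did not overlap for either gene. HOP1 was picked after its values were seen. On the other side, tE(UUC)M had a log2 fold change of -1.03 (adjusted p 0.324).

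Genes of the exosome itself had levels close to the control. Of its 13 genes, 12 were tested, MTR3 being listed at 0 in all 6 libraries, and none was called by edgeR or DESeq2. Their median log2 fold change was -0.04, 11 of 12 being below 0, beside -0.00 (-0.0023) for all features, and all 12 were bounded within 1.5-fold. The ring gene SKI6 stood at 58.3, 59.2 and 59.1 CPM against 55.7, 56.2 and 56 CPM, without overlap between groups, a log2 fold change of -0.07 (adjusted p 0.572). LRP1, whose product stabilizes Rrp6, stood at 55.6, 54 and 54 CPM against 52.1, 44.6 and 49.5 CPM, the lowest value of the list at -0.16 (interval -0.28 to -0.04, adjusted p 0.398). DIS3, the catalytic subunit, was at -0.04, RRP6 at -0.01 and RRP46, the only member above 0, at 0.01. The widest intervals of the list were those of RRP45 and of the cofactor gene MPP6, whose interval ran from -0.30 to 0.11.

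The cofactors that bring RNA to the exosome were likewise not called by either tool. The TRAMP complex adds short poly(A) tails to nuclear substrates, and its 5 genes had log2 fold changes from -0.10 for AIR1 to 0.01 for the helicase gene MTR4. The Nrd1-Nab3-Sen1 complex ends transcription of short noncoding RNAs, and its 3 genes ranged from 0.01 for NRD1 to 0.05 for SEN1. All 15 genes of the cytoplasmic decay list, among them the Ski complex, were bounded within 1.5-fold, from -0.10 for DCP1 to 0.10 for SKI8.

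Transcripts known as exosome substrates did not accumulate to the extent seen without Rrp6. Cryptic unstable transcripts (CUTs) are short noncoding RNAs that the nuclear exosome normally removes. Of 925 CUTs in the files, 586 passed the filter on low counts. Among these edgeR called none and DESeq2 called 2, CUT803 and CUT418, both higher, with a median over the 586 log2 fold change of 0.03. The same CUTs had a median of 1.22 in rrp6Δ. Of the 586, 543 (92.7%) were bounded within 2-fold and 384 (65.5%) within 1.5-fold, beside 97.5% and 89.8% of all features. By the unadjusted p under 0.05, 54 were higher and 18 lower (5.72% and 4.06% of all features). Of 847 stable unannotated transcripts (SUTs), 674 were tested, with a median of 0.03 against 0.80 in rrp6Δ. Of the 674, 648 (96.1%) were bounded within 2-fold and 545 (80.9%) within 1.5-fold. By the unadjusted p under 0.05, 40 were higher and 6 lower. By edgeR SUT106 was the only call; DESeq2 called 7, SUT106, SUT643, SUT832, SUT503, SUT318, SUT120 and SUT656, all higher. Scaling by library totals alone moved the median of all features to -0.04 and both of these medians just under 0; the CUT median was also just under 0 (-0.01) without mutant replicate 2. The CUT with the smallest p was CUT803, at 5.84, 6.76 and 6.58 CPM in the control and 8.26, 9.4 and 10.3 CPM in the mutant, without overlap (log2 fold change 0.55, adjusted p 0.0601 by edgeR and 0.000912 by DESeq2).

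Small nucleolar RNAs, which guide the modification of rRNA and are trimmed by the nuclear exosome, were not called by edgeR or DESeq2. The 46 tested C/D box RNAs had a median log2 fold change of 0.01, below 0 by library totals and in 4 of the 6 fits that left out a library, against 0.81 in rrp6Δ, and the 29 H/ACA box RNAs 0.07 against -0.11. All 75 were bounded within 2-fold, 42 of the former and 27 of the latter within 1.5-fold. Among them, snR68 stood at 39.4, 40.4 and 43.2 CPM against 45.3, 48.4 and 46.2 CPM without overlap (0.18, adjusted p 0.282), and snR74 at 12.4, 12 and 11.2 CPM against 9.97, 10 and 9.85 CPM (-0.25, adjusted p 0.29). Their differences had opposite signs, and neither passed the test. Of the mRNAs whose genes are attenuated through Nrd1, 7 of 8 were tested, TIS11 being listed at 0. NRD1, which limits its own mRNA in this way, was at 259, 240 and 252 CPM against 263, 247 and 246 CPM (0.01, interval -0.08 to 0.10), and HRP1 was at 163, 159 and 164 CPM against 165, 152 and 157 CPM (-0.03), where rrp6Δ gave 1.19. IMD2, which encodes an IMP dehydrogenase, was the most variable at 34.1, 48.1 and 31.5 CPM against 48.3, 44.9 and 34.8 CPM, with overlapping groups and an interval of -0.37 to 0.69.

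What the data exclude was read directly from features that changed in other mutants, chosen on libraries that this comparison does not use. In rrp6Δ, 1300 of 7828 features (16.6%) were called at least 2-fold higher than in RRP6 and 598 (7.64%) at least 2-fold lower. Of the higher ones 1104 were tested here, with a median log2 fold change of 1.38 there. Their median in rrp45-I15P was -0.01, edgeR called none and DESeq2 called PHO89, which was lower here. The 95% interval lay below the rrp6Δ value for 1078 (97.6%). For 921 (83.4%) it lay below 50% of that value on the log2 scale. Among the abundant members, snR80 was 2.69 higher in rrp6Δ and -0.02 in rrp45-I15P (interval -0.21 to 0.17), and snR48 was 2.38 against 0.07 (-0.09 to 0.23); these 2 and MMS2, which encodes a ubiquitin-conjugating enzyme variant and was at 2.07 against -0.01 (-0.15 to 0.13), were picked after their values were seen. The 594 tested features that were lower in rrp6Δ had a median of -1.23 there and 0.01 here, and the interval excluded the rrp6Δ value for all 594. In these readings the rrp6Δ value was taken without its own error, and the features were chosen for a large value there. How far the TMM scaling sets the rrp6Δ values was not tested.

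**Figure D3:**
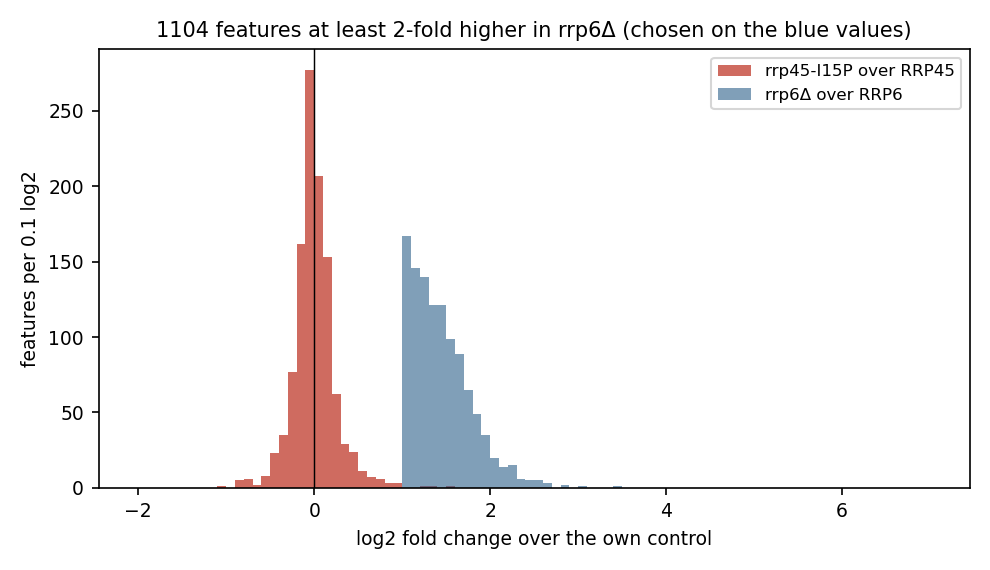
Distribution of log2 fold changes of 1104 features called at least 2-fold higher in rrp6Δ, in rrp6Δ over RRP6 (blue, the values they were chosen on) and in rrp45-I15P over RRP45 (red). The horizontal axis is the log2 fold change and the vertical axis the number of features per 0.1 log2; the red values centre at -0.01 and the blue at 1.38.

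The difference between alleles was tested itself, as an interaction in a joint fit of 12 libraries. The effect differed between rrp45-I15P and rrp6Δ for 5816 of 7868 features (73.9%), among them 1056 of the 1104 higher and 589 of the 594 lower ones. Those 2 lists were chosen on rrp6Δ and RRP6 libraries that also enter this test. Most members were thus bound to differ, and their counts are no separate support. Against rrp46-L191H, another ring allele, it differed for 3909 of 7653 (51.1%). In rrp46-L191H 3.56% of 7550 features were called at least 2-fold higher and 2.82% lower than in RRP46. These features too were chosen on libraries that enter the test. The 257 of the higher ones tested here had a median of 1.27 there and 0.02 in rrp45-I15P, and 245 differed. The 201 lower ones had a median of -1.31 there and 0.07 here, and 192 differed, among them both SUT106 and 15S_rRNA. Of the 201, 143 were above 0 here, where 48.8% of all features were. Without overlap, 51 were higher and 7 lower (7.74% and 6.91% of all features). DESeq2 called 12 of the 201 (0.613% of all features). Since rrp46-L191H was read against RRP46 and rrp45-I15P against RRP45, the alleles share no control library. Each mutant shares its strain background and kind of plasmid with its own control. The 2 families differ in genotype, so the effects were measured in different backgrounds.

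Against rrp46-Q86I, a ring allele with 39 calls of 7570 against its own control (0.515%), the effect differed for 10 of 7639 features (0.131%), with 867 under 0.05 by the unadjusted p. RRP46 itself was among them as the gene carrying the other allele, at -2.51 in rrp46-Q86I and 0.01 in rrp45-I15P (adjusted p of the difference 1.6e-08). FET3, which encodes a copper-dependent iron oxidase, was at 0.59 against 0.01 (adjusted p of the difference 0.00024). The largest difference was that of SUT288, at -3.72 in the rrp46 allele against -0.21 here (adjusted p of the difference 0.000789). The other 7 were CUT803, APQ13, CUT501, YML090W, SUT161, YLR154W-E and CUT19; these 10 are named because the count is small, after their values were seen. The count was 4 to 14 with a library left out.

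Mitochondrially encoded RNAs stood above the control as a group. The yeast mitochondrial genome encodes the 2 rRNAs and the tRNAs of mitochondrial translation, the ribosomal protein Var1 and 7 subunits of the respiratory chain and ATP synthase; it is transcribed by Rpo41, a single-subunit RNA polymerase, and its RNA is degraded inside the organelle by the helicase Suv3 with the nuclease Dss1, not by the exosome. Of 45 features that the RefSeq annotation places on this genome, 29 passed the filter on low counts and all 29 had a log2 fold change above 0, where 48.8% of all features did. With no filter 40 of the 45 were above 0. Their median was 0.45, from 0.05 for AI2 to 0.96 for tM(CAU)Q2. Of the 29, edgeR called 15S_rRNA (0.0266% of all features were called) and DESeq2 called 10 (0.613% of all). By the unadjusted p, 23 were under 0.05 and higher (5.72% of all features), and 20 had no overlap between the groups (7.74% of all). Grouping by genome was chosen after the values were seen.

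As a share of all counts, mitochondrial features took 3.44%, 3.64% and 3.38% in the control and 3.86%, 4.26% and 4.03% in rrp45-I15P. The 2 groups did not overlap. Because the features share these libraries they are not independent of each other, and the rise differed between mutant libraries: the median of the 29 over the control mean was 0.17 in replicate 1, 0.52 in replicate 2 and 0.36 in replicate 3. Replicate 2, which stood apart on the first component, held the highest level for 24 of the 29. Without it 28 of 29 were above 0, with a median of 0.36, and 6 were called; without replicate 1 all 29 were above 0, with a median of 0.60, and 9 were called. The count was 0 without control replicate 1, control replicate 3 or mutant replicate 3. The share of nuclear rRNA, which the depletion removes, was 1.11%, 1.39% and 1.44% in the control and 1.34%, 1.62% and 1.48% in the mutant, with overlap, and was highest in the same replicate 2. Its part in the mitochondrial result was not tested. In bulk RNA a change in every cell and one in some of the cells cannot be told apart.

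**Figure D4:**
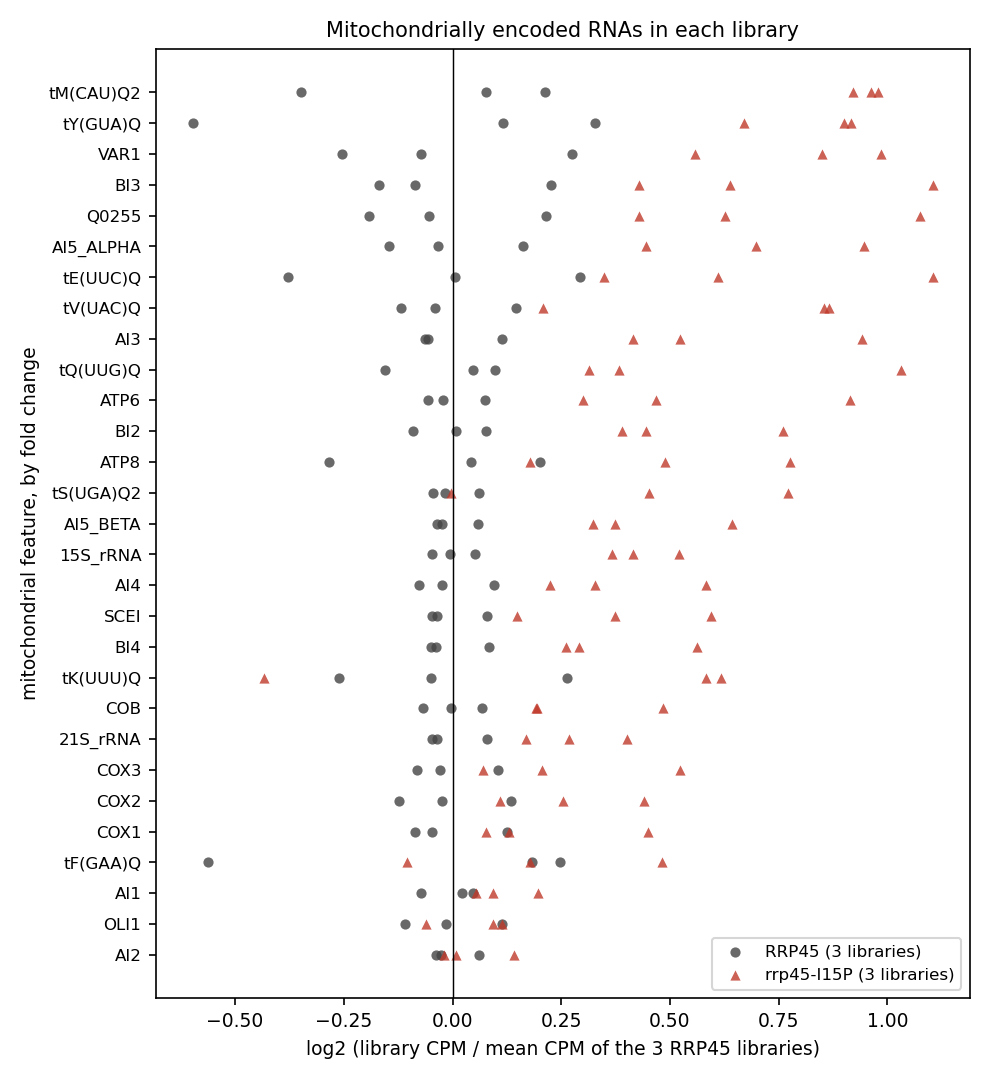
Level of each of the 29 tested mitochondrial features in each library, as log2 of its CPM over the mean CPM of the 3 RRP45 libraries (horizontal); rows are features in order of fold change. Triangles are the 3 rrp45-I15P libraries and circles the 3 RRP45 libraries; 20 features have no overlap.

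Among the mitochondrial rRNAs, 21S_rRNA of the large subunit stood at 18400, 20106 and 18555 CPM in the control and 21375, 25101 and 22919 CPM in the mutant. It did not overlap and had a log2 fold change of 0.28 (SE 0.0694, adjusted p 0.211 by edgeR and 0.000459 by DESeq2). The 8 protein-coding genes of the list had a median of 0.29, all above 0. VAR1 was the highest, at 2.63, 3.79 and 2.98 CPM against 4.61, 6.2 and 5.65 CPM, without overlap (0.81, adjusted p 0.0601). ATP6, a subunit of the membrane part of ATP synthase, was at 303, 332 and 310 CPM against 388, 594 and 435 CPM (0.58, adjusted p 0.424), again without overlap and highest in replicate 2, without which it was 0.38. COB, which encodes cytochrome b, was at 93.3, 103 and 97.5 CPM against 112, 137 and 112 CPM (0.30, adjusted p 0.285 by edgeR and 0.00739 by DESeq2), and the value was 0.19 without mutant replicate 2. The cytochrome oxidase genes COX1, COX2 and COX3 had log2 fold changes of 0.23, 0.27 and 0.28, and their groups overlapped. Each was highest in mutant replicate 2, and without it the values were 0.10, 0.18 and 0.14. OLI1, the ring subunit of ATP synthase, was at 2994, 3276 and 2806 CPM against 2901, 3229 and 3276 CPM, with overlap. Its log2 fold change was 0.05 (interval -0.09 to 0.19), and 0.00 to 0.11 with a library left out.

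Reading frames inside introns of COX1 and COB, most of which encode proteins that help splice their own intron, were all above 0. Of the 9 tested, 8 were higher with no overlap between the groups (7.74% of all features), and their median was 0.45. AI5_BETA was at 27.4, 29.2 and 27.6 CPM against 35.1, 43.8 and 36.4 CPM (0.45, adjusted p 0.0601). BI2 was at 60.3, 67.7 and 64.6 CPM against 84.1, 109 and 87.3 CPM (0.54, adjusted p 0.137). AI1 and AI2, the first of the COX1 introns, were higher in level and closer to the control, with log2 fold changes of 0.12 and 0.05; both were picked after their values were seen. In the annotation 15 of the 29 features overlap another gene, these among them, so that reads of an intron and its host may be shared. The 8 tested mitochondrial tRNAs of 23 in the files had a median of 0.64 and mean levels of at most 2.4 CPM, and 5 were higher without overlap (7.74% of all); with no filter 18 of the 23 were above 0. The nuclear genes that serve the organelle did not follow: 50 of 56 mitochondrial ribosomal protein genes were below 0 with a median of -0.07, and 25 of 31 nuclear respiratory chain genes with a median of -0.05. None was called in either list by edgeR or DESeq2. For the 12 nuclear genes that transcribe, process or degrade mitochondrial RNA, log2 fold changes ran from -0.12 for PUS2 to 0.06 for PET127, and all were bounded within 1.5-fold.

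The start regions of both rRNA genes are shown because they hold the mitochondrial promoter motif. The nonanucleotide ATATAAGTA, recognized by Rpo41 with its factor Mtf1, is in capitals; in windows of 250 bases before to 50 bases after each annotated start, read on the gene's strand, it was found in 3 of 46 mitochondrial genes (6.52%), the third being tM(CAU)Q2, and in 48 of 6430 nuclear genes (0.747%; 1.07% on either strand). It lay 84 bases before the annotated 15S_rRNA (MT:6546-8194, plus strand) and 9 bases before 21S_rRNA (MT:58009-62447, plus strand). Positions are from the RefSeq R64 genome, which is 85779 bases for this chromosome.
15S_rRNA (MT:6437-6496): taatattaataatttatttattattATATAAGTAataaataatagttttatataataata
21S_rRNA (MT:57975-58034): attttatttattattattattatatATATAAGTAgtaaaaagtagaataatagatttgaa
The 3 genes with a match had log2 fold changes of 0.44 (15S_rRNA), 0.28 (21S_rRNA) and 0.96 (tM(CAU)Q2), beside a median of 0.45 for the 29. The last was not called by edgeR or DESeq2. Whether the motif bears on these values was not tested.

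In the 3 mutants read for comparison most of the same RNAs lay below their controls. The median log2 fold change of the mitochondrial features in rrp46-Q86I was -0.19 over 29 features, -0.97 in rrp46-L191H over 28 and -1.17 in rrp6Δ over 26, all 26 being below 0 in the last. The interaction test found a different effect for 24 of the 29 between rrp45-I15P and rrp46-L191H, 23 of them higher in rrp45-I15P (25.9% of all features) and OLI1 lower (25.2%), and for 29 of 29 between rrp45-I15P and rrp6Δ, all higher (37.4% of all). It found none of 29 against rrp46-Q86I, where the smallest adjusted p was 0.227. For 15S_rRNA the log2 fold change was 0.44 here, -1.03 in rrp46-L191H (adjusted p of the difference 2.91e-05) and -0.89 in rrp6Δ (0.000145). The RRP46 control stood apart in this RNA: 15S_rRNA took 0.654% of its counts as a group mean, beside 0.341% to 0.436% in the 4 other controls, while rrp46-L191H (0.36%) was close to the RRP45 control (0.361%). How far this control sets the difference was not tested. In rrp6Δ 21S_rRNA was at -0.69 after TMM scaling, while its share of counts was 1.99% in RRP6 and 1.88% in rrp6Δ as group means. For 15S_rRNA these shares were 0.398% and 0.327%. How far the scaling sets the rrp6Δ values was not tested. As a share of all counts, mitochondrial features overlapped between mutant and control in rrp46-Q86I, rrp46-L191H, rrp46-L127T, rrp6Δ and rrp40-W195R. In rrp4-G226D the share was higher, as in rrp45-I15P, at 3.54% to 3.67% against 3.29% to 3.39% in RRP4, without overlap. In rrp40-S87A it was lower, at 3.23% to 3.48% against 3.66% to 4.25% in RRP40.

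**Figure D5:**
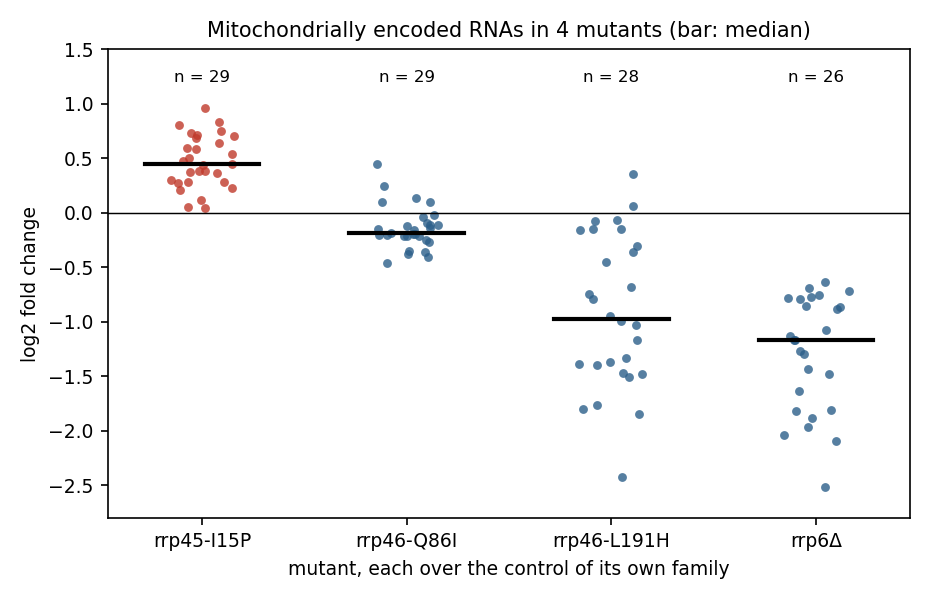
Log2 fold change of the mitochondrial features (points, those of the 29 that were tested in each comparison) in 4 mutants, each over the control of its own family; bars are medians. The medians are 0.45 in rrp45-I15P, -0.19 in rrp46-Q86I, -0.97 in rrp46-L191H and -1.17 in rrp6Δ; both rrp46 mutants share their control libraries.

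Genes of ribosome production and of translation, named in the series title, were bounded tightly. The 81 genes of the large and 56 of the small cytosolic ribosomal subunit had medians of -0.02 and -0.03. None was called by edgeR, and DESeq2 called RPL29 and RPL38; 80 and 56 were bounded within 1.5-fold. In rrp6Δ the same genes had medians of -1.19 and -1.26 after TMM scaling, whose part in these values was not tested. RPL38 stood at 652, 699 and 669 CPM against 603, 575 and 596 CPM, without overlap (-0.19, adjusted p 0.147 by edgeR and 0.00493 by DESeq2), and RPL29 at 161, 164 and 161 CPM against 180, 232 and 205 CPM, also without overlap (0.34, adjusted p 0.211 by edgeR and 0.000459 by DESeq2). Ribosome biogenesis genes were below 0 in 83 of 94, with a median of -0.06, and 22 had no overlap and were lower (6.91% of all features). None was called by edgeR or DESeq2 and all 94 were bounded within 1.5-fold. UTP6, of the small subunit processome, was at 56.4, 51.3 and 53.3 CPM against 47.1, 49.9 and 47.4 CPM (-0.16, adjusted p 0.36). The median of this list was -0.09 by library totals, and its lower direction held in each fit that left out a library.

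Stress and nutrient genes were close to the control as lists, with single members outside the spread of replicates. The disaggregase gene HSP104 was at 278, 323 and 299 CPM in the control and 350, 370 and 400 CPM in the mutant, without overlap (0.32, adjusted p 0.0865). SSE2, a nucleotide exchange factor for Hsp70, was at 117, 131 and 131 CPM against 142, 155 and 156 CPM (0.26, adjusted p 0.0966). HSP10, the mitochondrial co-chaperonin gene, was at 150, 161 and 142 CPM against 137, 140 and 142 CPM (-0.11, adjusted p 0.466). The 23 heat shock genes had a median of 0.00 (0.0048), the 57 amino acid synthesis genes 0.01, the 24 purine and pyrimidine genes 0.02, the 16 iron genes 0.03 and the 19 general stress genes 0.02, with none called by edgeR. All 5 of these medians were below 0 by library totals, and those of heat shock, general stress, amino acid and purine and pyrimidine genes were also below 0 in 3, 2, 1 and 1 of the 6 fits that left out a library. SPI1, a cell wall protein gene of the general stress list, was at 85.1, 89.3 and 86.6 CPM against 98.2, 107 and 114 CPM (0.29, adjusted p 0.0601). TDH1, an isozyme of glyceraldehyde-3-phosphate dehydrogenase, was at 435, 456 and 471 CPM against 503, 595 and 562 CPM (0.28, adjusted p 0.0966). For these 5 genes DESeq2 gave adjusted p-values under its threshold for HSP104 (0.000179), SSE2 (0.00285), SPI1 (0.000348) and TDH1 (0.000508), but not for HSP10 (0.693).

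Among features called lower by DESeq2 were PHO89, RPL38 and TMA10. PHO89, a sodium-phosphate cotransporter gene, was at 56.1, 56.1 and 54.9 CPM against 47, 48.8 and 39.7 CPM, without overlap (-0.31, interval -0.45 to -0.17; edgeR adjusted p 0.125, DESeq2 0.00477). TMA10, whose product associates with ribosomes, was at 310, 334 and 256 CPM against 255, 239 and 251 CPM (-0.27, edgeR adjusted p 0.419, DESeq2 0.0325). YDR215C was at 10.3, 11.4 and 13.2 CPM against 9, 9.71 and 7.75 CPM, without overlap (-0.41, edgeR adjusted p 0.229, DESeq2 0.053). It was called lower in the authors' deposited table only (adjusted p 0.0463). Of the 50 features DESeq2 called, 10 were mitochondrial, among them BI2, BI4, COB, VAR1 and both rRNAs, and in all 50 the groups did not overlap. At least 2-fold lower in rrp6Δ were 19 of them, 38% of the 50 and 3.2% of that list of 594, which is 7.9% of the features tested. DESeq2 called 0.613% of all features. The 19 include the mitochondrial features AI3, AI5_ALPHA, AI5_BETA, BI2, BI4 and VAR1, at -1.97 to -1.13 in rrp6Δ. All of these but VAR1 overlap another gene in the annotation. How far the TMM scaling sets the rrp6Δ values was not tested.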

How the data were processed

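RNA was sequenced from 39 yeast cultures in 13 groups of 3, of which 6 libraries are compared here. Per the submitters' processing notes, reads were handled with STAR, featureCounts 1.22.2, StringTie 2.1.7 and DESeq2 1.38.1 on build R64; their roles and order, the strand setting and the handling of multimapping reads are not given in the sources used here. Raw counts of 8898 features were deposited for each library. The authors' deposited table of this comparison holds log2 fold changes with raw and adjusted p-values; 86.7% of its log2 values are under 0.01 in size, so only its calls were used. Of the features, 6048 were matched to RefSeq by locus tag, 114 by symbol and 1772 by catalogue name (CUTs and SUTs), and 964 are known by file identifier only.

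Counts were analysed in R 4.3.3 with edgeR 4.0.16: default expression filter, TMM factors, robust quasi-likelihood F test, two-sided, Benjamini-Hochberg adjustment over all 7520 tested features, called under 0.05. Intervals and the one-sided tests used the standard error of the same coefficient. Differences between alleles were interaction contrasts over 12 libraries. No covariate was used. The totals of the 6 libraries, 34752067 to 53642418 counts, set the counting error, and intervals cover these cultures only. DESeq2 1.42.0 on the counts, other factors and filters, no robust step, a replicate block, a joint fit of all libraries and omission of each library were alternatives. No pair of replicates agreed within counting noise. The procedure was tested on simulated data.

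Named genes were taken by rule: the called features; RRP45 and genotype markers; features called by at least 2 of edgeR, DESeq2 and the block fit; the 5 highest and 5 lowest log2 fold changes at a mean of at least 10 CPM without overlap and with unadjusted p under 0.05; members of the exosome, TRAMP, Nrd1 and mitochondrial rRNA and protein lists; and in each other list the smallest p in each direction. DESeq2 calls within a list, and the ends of a list's range, are named after their values were seen; others are said to be picked. Not every feature that met the rule is named. Members and lists were chosen with earlier results of these data known.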

Additional observations from a re-analysis of the deposited data

Results flagged for a closer look

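The effects of rrp45-I15P differed from those of 3 other mutants, by the interaction test, for 10 features against rrp46-Q86I, 3909 against rrp46-L191H and 5816 against rrp6Δ. Among mitochondrial features the difference passed the test for 24 against rrp46-L191H and 29 against rrp6Δ. For 15S_rRNA the log2 fold change in rrp45-I15P was 1.47 above that in rrp46-L191H and 1.32 above that in rrp6Δ. For 21S_rRNA these differences were 0.65 and 0.97, and for SUT106 2.11 and 1.03. Each mutant was read against its own control, so a difference between controls enters these values, as does the TMM scaling. The part of either was not tested. The RRP46 control held more 15S_rRNA, 0.654% of its counts, than the 4 other controls, 0.341% to 0.436%.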

How the results depend on the processing

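The count of called features, 2, was 5 with library totals, 9 with no filter, 15 with the robust step off, 17 at an adjusted p under 0.1, 50 with DESeq2 (5 of them beyond 2-fold), and 0 both with a 2-fold minimum and in the joint fit of all 39 libraries; without the mitochondrial features, an alternative chosen after seeing the data, it was 1. RLE factors and a mean CPM of at least 10 each left it at 2. It ran from 1 to 31 with a library left out: 31 without mutant replicate 1, 10 without mutant replicate 2, 1 without mutant replicate 3, and 1 without control replicate 1. The cause of these shifts was not tested. With the replicate number as a block the count was 68. The deviations of same-numbered libraries had correlations of 0.39, 0.13 and -0.34, and those of differently numbered ones -0.44 to 0.29. So few values cannot decide whether the numbers pair the libraries. The bounds moved little: 7228 to 7318 features within 2-fold and 6518 to 6722 within 1.5-fold with a library left out; at a mean CPM of at least 10, where fewer features were tested, they were 5135 and 5115. The count that differed from rrp46-Q86I was 5 at a mean CPM of at least 10 and 4 to 14 with a library left out; the counts against rrp46-L191H and rrp6Δ stayed within 1.5 times under each alternative run. No called feature changed sign. The bounds are weakest under 1 CPM.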
